A study of Mus musculus with 21 samples.

Results

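Expression of 10 genes of the bone morphogenetic protein (BMP) pathway was followed across mouse embryonic stem cells (mESCs) lacking or depleted of subunits that associate with the cohesin complex. The genes were listed by symbol for their roles in the pathway, with earlier results of these data known. They are the ligand *Bmp4*, the receptor *Bmpr1a*, the *Id1*, *Id2*, *Id3* and *Id4* genes, the homeobox genes *Msx1* and *Msx2*, the inhibitory SMAD gene *Smad6* and the secreted antagonist gene *Nog*. These are 10 of the 23412 gene symbols counted in each library, and all 10 passed the filter on low counts that kept 14963 symbols for testing.

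The cells were v6.5 mESCs, a male line grown on gelatin, and poly-A RNA was sequenced 48 h after transfection with 50 nM of siRNA. The 7 groups of 3 libraries were WT cells with siGLO (a transfection control) or siPds5b, Pds5b-KO cells with siGLO, and Pds5a-KO cells with siGLO, siPds5b, siStag1 or siStag2. PDS5A and PDS5B are alternative cohesin-associated proteins, STAG1 and STAG2 are alternative cohesin subunits, and Pds5a-KO siPds5b cells are called dual-depleted here. Each knockout group came from 1 CRISPR clone, so the effects of the clone and of the gene cannot be told apart, and p-values measure only the spread between libraries, which may be technical.

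BMP ligands bind a complex of type I and type II receptors, and the type I receptor phosphorylates SMAD1, SMAD5 and SMAD9. These enter the nucleus with SMAD4 and bind DNA at their target genes. The *Id* genes are well-known direct targets, and they encode helix-loop-helix proteins without a DNA-binding region that hold E proteins away from DNA. *Smad6* is also induced by the pathway and feeds back on it, while noggin, encoded by *Nog*, traps ligands outside the cell. In mESCs grown in serum, BMP signalling through ID proteins is known to help hold back neural differentiation alongside LIF.

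Stretches of 250 bases upstream of the transcription start were taken from RefSeq (GRCm38.p6, the build of mm10) for 8 of the 10 genes. *Id1* and *Nog* had no entry. Those of the 5 matched genes that changed in at least 1 comparison are shown, since the SMAD proteins of the pathway bind DNA at 2 short motifs. Capitals mark GGCGCC, a GC-rich SMAD1/5 motif that reads the same on both strands, and CAGAC or its complement GTCTG, part of the SMAD-binding element. Each stretch runs 5′ to 3′ toward the RefSeq start. Those of *Id2* and *Id3*, and of *Bmpr1a* and *Msx2* (not shown), lie within the gene's span in the GENCODE annotation, which begins further upstream.
Id2, chr12:25096093-25096342, minus strand: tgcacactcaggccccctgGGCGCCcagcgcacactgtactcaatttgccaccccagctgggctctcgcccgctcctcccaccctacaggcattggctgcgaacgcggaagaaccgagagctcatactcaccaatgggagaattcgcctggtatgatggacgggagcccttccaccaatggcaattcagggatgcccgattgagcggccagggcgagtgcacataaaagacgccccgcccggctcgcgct
Id3, chr4:136143572-136143821, plus strand: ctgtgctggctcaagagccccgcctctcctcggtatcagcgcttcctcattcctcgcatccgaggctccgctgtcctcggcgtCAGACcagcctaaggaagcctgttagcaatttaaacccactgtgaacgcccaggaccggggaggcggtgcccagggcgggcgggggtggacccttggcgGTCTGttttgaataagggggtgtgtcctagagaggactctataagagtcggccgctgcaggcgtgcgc
Id4, chr13:48260866-48261115, plus strand: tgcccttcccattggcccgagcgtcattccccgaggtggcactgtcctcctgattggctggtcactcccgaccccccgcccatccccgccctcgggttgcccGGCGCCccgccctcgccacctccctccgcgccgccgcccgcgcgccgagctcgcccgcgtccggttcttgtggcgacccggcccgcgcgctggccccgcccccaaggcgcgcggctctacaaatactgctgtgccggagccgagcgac
Bmp4, chr14:46390670-46390919, minus strand: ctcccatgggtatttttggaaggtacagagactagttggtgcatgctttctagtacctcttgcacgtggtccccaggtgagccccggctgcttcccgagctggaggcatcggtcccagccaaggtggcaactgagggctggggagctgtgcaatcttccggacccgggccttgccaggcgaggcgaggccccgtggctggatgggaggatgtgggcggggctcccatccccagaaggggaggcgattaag
Smad6, chr9:64022060-64022309, minus strand: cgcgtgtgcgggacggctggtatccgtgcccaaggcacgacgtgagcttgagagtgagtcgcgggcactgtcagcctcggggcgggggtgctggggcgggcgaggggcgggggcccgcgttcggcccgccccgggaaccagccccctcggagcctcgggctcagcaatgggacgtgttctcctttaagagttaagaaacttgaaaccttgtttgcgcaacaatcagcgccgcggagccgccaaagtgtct

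GGCGCC was present in the stretches of *Id2*, *Id4* and *Bmpr1a*, 3 of 8, against 9.59% of 32851 RefSeq stretches of the same length. CAGAC on either strand was present in that of *Id3*, with 2 matches, and in no other of the 8, against 42.2% of all stretches. The E-box CANNTG, the motif of basic helix-loop-helix factors, was present in 4 of 8, against 66.2%. No GGCGCC match overlapped a CAGAC match. The 8 stretches held between 61.6% (*Msx2*) and 78.8% (*Bmpr1a*) G and C, against a median of 52.4% over all stretches. GGCGCC holds only G and C, and the part of base content in these shares was not tested. The motif counts are matches of letters in 1 window and do not show binding.

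The total count per library lay between 17311090 and 23989198. The transcript targeted by each siRNA was low where it should be: *Pds5b* fell from a mean of 2366 normalized counts in Pds5a-KO siGLO to 903.3 with siPds5b, *Stag1* from 2428 to 574.5 with siStag1 and *Stag2* from 3256 to 875.2 with siStag2. *Pds5b* was at 275.8 in Pds5b-KO cells against 2219 in WT siGLO. *Pds5a* was at 4271 in Pds5a-KO siGLO against 5059 in WT siGLO (log2 fold change -0.24, adjusted p = 0.0415), so its transcript level does not check that label. The summed counts of 6 pluripotency markers, all of them detected, were 68830 to 70520 in WT siGLO, 49390 to 55240 in Pds5a-KO siGLO, 48960 to 52870 in Pds5b-KO siGLO, 31940 to 33490 in dual-depleted cells and 35400 to 38220 with siStag2. Of 4 tested neuroectoderm markers, 2 were called lower in Pds5a-KO siGLO and 3 in dual-depleted cells. The 4 summed to 2086 to 2465 and to 1638 to 1885, against 3246 to 3854 in WT siGLO. *Pax6* went the other way in both, with means of 78.86 and 70.34 against 43.9 in WT siGLO, and was not called. All 4 had an unadjusted p under 0.05 in edgeR in both comparisons, against 5771 and 7728 of all 14963 genes. In Pds5b-KO siGLO 2 of the 4 rose, *Sox1* (from a mean of 300.5 to 810.6) and *Pax6* (from 43.9 to 204.2), while their sum of 3394 to 3712 overlapped WT siGLO. The 5 primitive endoderm markers summed to 1210 to 2173 in Pds5b-KO siGLO, above the 713.6 to 1183 of WT siGLO. There 0 of 5 were called in edgeR and 3 had an unadjusted p under 0.05, against 6367 of all 14963 genes. Of 4 tested trophoblast markers, *Cdx2* and *Gata3* rose and *Eomes* fell in both knockouts and in dual-depleted cells, with all 5 listed summing to 407.3 to 665.7 in WT siGLO and 289.5 to 479.5 in the single knockouts. Over all tested genes, 17.8% were called in Pds5a-KO siGLO, 18.2% in Pds5b-KO siGLO and 32% in dual-depleted cells, each against WT siGLO. Every listed marker had counts in each group. In bulk RNA, fewer cells of one kind and less RNA per cell cannot be told apart, and the part of these shifts in the BMP results was not tested.

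Levels between genes are compared per kilobase of exon in WT siGLO cells. *Id1* was the highest at 937 ± 68 normalized counts per kb (SD, n = 3), followed by *Bmpr1a* at 409 ± 17.5 and *Id3* at 265.6 ± 34.6. *Bmp4* at 169.3 ± 22.4 and *Id2* at 146.7 ± 13.2 were neighbours in this order whose libraries overlapped. *Smad6*, *Nog*, *Id4* and *Msx2* followed between 74.45 and 14.27, with overlapping libraries of *Nog* and *Id4*, and *Msx1* was the lowest at 1.481. The values that follow are normalized counts per gene, scaled to a common library size and not divided by length, and a gene was called at an adjusted p under 0.01 in edgeR's quasi-likelihood test over all 14963 genes.

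*Bmp4* was lower in Pds5b-KO cells than in WT or Pds5a-KO cells. Its counts were 436.5, 366.1 and 339 in the WT siGLO libraries, 356.5, 466.7 and 542.6 in Pds5a-KO siGLO, and 209, 209.4 and 217.4 in Pds5b-KO siGLO. The 3 Pds5b-KO libraries were nearly equal and lay below every library of the other 6 groups. The log2 fold change was -0.84 (standard error 0.19, adjusted p = 0.00239) against WT siGLO, and Pds5a-KO siGLO was higher than Pds5b-KO siGLO by 1.10 (standard error 0.19, adjusted p = 0.000204), or 2.149-fold. The call against WT was lost without WT siGLO library 1 (adjusted p = 0.0153), Pds5b-KO library 1 (0.0122) or Pds5b-KO library 2 (0.0129). The summed counts of 6 markers of fibroblasts, which serve as feeders of mESC cultures, were 305.1 to 427.1 in Pds5b-KO siGLO, 1048 to 1455 in WT siGLO and 331.1 to 1378 in Pds5a-KO siGLO. Of 4 that could be tested, all had a negative log2 fold change in Pds5b-KO and 1 was called (*Thy1*), against 18.2% of all genes. At an unadjusted p under 0.05 there were 3 of the 4, against 6367 of all 14963 genes. Mean counts in Pds5b-KO siGLO were 161.1 for *Col1a1*, 92.37 for *Col1a2* and 35.77 for *Col3a1*. In WT siGLO they were 536.2, 513.7 and 36.18. The part of these markers in the *Bmp4* result was not tested. In WT siPds5b cells *Bmp4* was at 486, 299.1 and 367.3, overlapping WT siGLO. *Bmp4* overlaps the genes Gm15217 and Gm15222 on the other strand, and since the use of strand in counting is not given in the sources used here, their reads cannot be told apart.

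*Bmpr1a*, a type I receptor for BMP4, was the steadiest of the 10 genes. Its group means lay between 2352 in Pds5a-KO siGLO and 2728 in Pds5b-KO siGLO, and no comparison was called. The largest difference was the one between those 2 groups, -0.21 (standard error 0.07, adjusted p = 0.0279). Antisense reads of Gm17110 could be included in its counts.

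*Id1* was raised in dual-depleted cells above every library of the other groups. It had 1091, 1006 and 1163 normalized counts in WT siGLO, 1337, 1204 and 1376 in WT siPds5b, 1478, 2135 and 2074 in Pds5a-KO siGLO and 1185, 1887 and 2156 in Pds5b-KO siGLO. In dual-depleted cells it had 2593, 3614 and 3568. All 3 dual-depleted libraries exceeded the highest library elsewhere, 2309 in Pds5a-KO siStag1.
Against WT siGLO the log2 fold change in dual-depleted cells was 1.58 (standard error 0.22, adjusted p = 2.41e-05), or 2.993-fold, and the call held under each of the 14 alternatives tried. In the single knockouts the libraries also lay above those of WT siGLO without passing the threshold, at 0.80 (adjusted p = 0.0106) in Pds5a-KO and 0.68 (adjusted p = 0.0249) in Pds5b-KO. Leaving out 1 library gave 0.71 to 0.95 in Pds5a-KO (adjusted p between 0.00496 and 0.047) and 0.52 to 0.89 in Pds5b-KO (between 0.00299 and 0.0942). Of these leave-out fits only those without library 1 of the knockout, its lowest, passed. DESeq2 called *Id1* in both knockouts (adjusted p = 0.00195 in Pds5a-KO and 0.00802 in Pds5b-KO). So did edgeR with the library number as a block in the model (adjusted p = 0.000438 and 0.00219). Of 14 alternatives, 6 called it in Pds5a-KO and 4 in Pds5b-KO.

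*Id2* had its highest means in Pds5a-KO cells with siGLO or siStag1, and a lower one in dual-depleted cells. Its counts were 335.1, 343.6 and 394.4 in WT siGLO, 803.4, 1390 and 1284 in Pds5a-KO siGLO, 420.1, 709.9 and 843.5 in Pds5b-KO siGLO, and 609.1, 748.4 and 704.6 in dual-depleted cells. The libraries of the last 3 groups were all above those of WT siGLO.
*Id2* rose in Pds5a-KO siGLO with a log2 fold change of 1.70 (adjusted p = 0.000169, standard error 0.26), or 3.238-fold, a call that held under each of the 14 alternatives. It rose by 0.94 in dual-depleted cells (standard error 0.26, adjusted p = 0.00852), but leaving out any 1 of the 6 libraries raised that adjusted p to between 0.0121 and 0.0335. In Pds5b-KO siGLO the value was 0.88 (adjusted p = 0.019). Leaving out 1 library gave 0.68 to 1.12 (adjusted p between 0.00315 and 0.0741), past the threshold only without Pds5b-KO library 1. DESeq2 (adjusted p = 0.00461) and edgeR with the block for the library number (adjusted p = 2.99e-05) also called *Id2* in Pds5b-KO.

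The mean of *Id3* lay above that of WT siGLO in Pds5a-KO cells and below it in Pds5b-KO cells. Its counts were 404.7, 518.2 and 504.4 in WT siGLO, 486.5, 1055 and 817.3 in Pds5a-KO siGLO, 225.9, 314 and 366.9 in Pds5b-KO siGLO, and 757.4, 1445 and 1037 in dual-depleted cells. The Pds5b-KO libraries lay below, and the dual-depleted libraries above, all of those of WT siGLO.
Against WT siGLO, neither Pds5a-KO (0.73, adjusted p = 0.0949) nor Pds5b-KO (-0.65, adjusted p = 0.14) passed the threshold. DESeq2 also called neither (adjusted p = 0.0724 and 0.107), while edgeR with the block for the library number called both (adjusted p = 0.00561 and 0.00909). Compared with each other, Pds5a-KO was higher by 1.38 (standard error 0.32, adjusted p = 0.00438), or 2.599-fold. That call was lost without Pds5a-KO library 2 (adjusted p = 0.0268), Pds5a-KO library 3 (0.0132), Pds5b-KO library 1 (0.0265) or Pds5b-KO library 2 (0.0154). *Id3* rose in dual-depleted cells against WT siGLO by 1.18 (standard error 0.31, adjusted p = 0.00588), or 2.269-fold, and this call was lost without any 1 of the WT siGLO libraries or without dual-depleted library 2 or 3 (adjusted p between 0.0137 and 0.0326).

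*Id4*, the least expressed of the *Id* genes, was lowest in Pds5b-KO cells. It had 70.46, 111.5 and 73.6 normalized counts in WT siGLO, 61.96, 79.5 and 72.29 in Pds5a-KO siGLO and 38, 53.84 and 53.39 in Pds5b-KO siGLO. The Pds5b-KO libraries lay below those of both other groups. *Id4* fell by 0.80 against WT siGLO on a log2 scale (adjusted p = 0.00914, standard error 0.23), a value next to the threshold that was lost in 9 of the 14 alternatives. Leaving out WT siGLO library 2 gave an adjusted p of 0.0814, WT siGLO library 3 gave 0.0123, and Pds5b-KO libraries 1, 2 and 3 gave 0.0557, 0.0185 and 0.0153. *Id4* overlaps A330033J07Rik and Gm49291 on the other strand, with the same limit as for *Bmp4*.

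**Figure D1:**
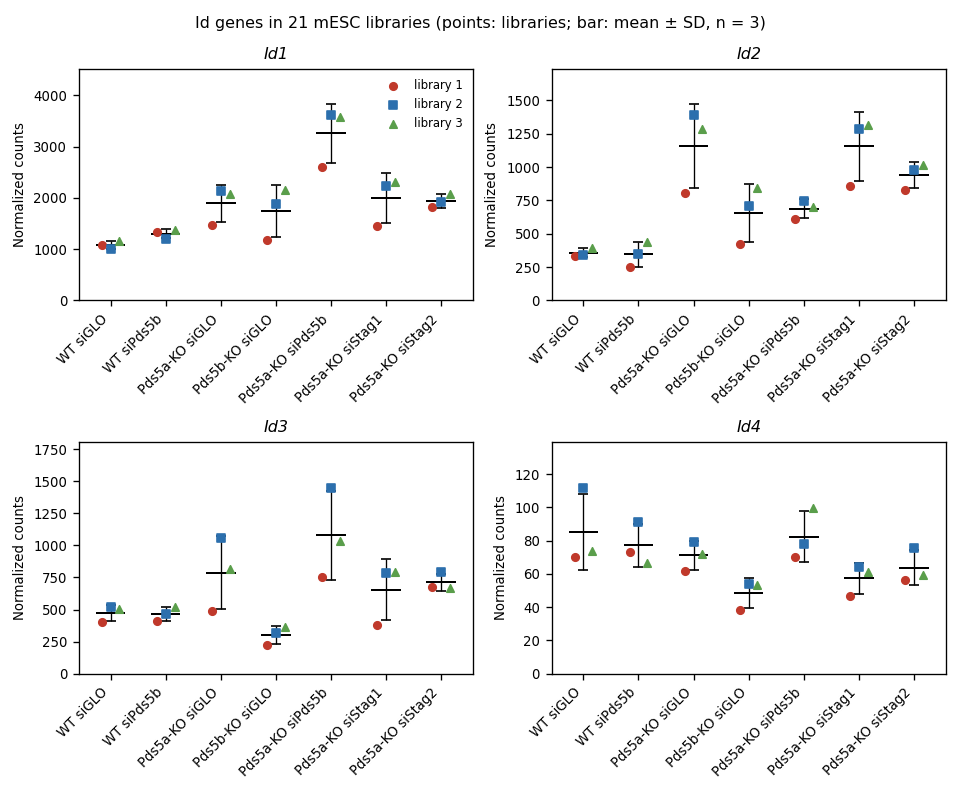
Normalized counts of *Id1*, *Id2*, *Id3* and *Id4* (vertical axes, from 0) in the 7 groups (horizontal axes), with a point for each library marked by its number and a bar for the mean ± SD (n = 3). *Id1* was highest in Pds5a-KO siPds5b (3258 ± 577), *Id2* in Pds5a-KO siGLO (1159 ± 312), and *Id3* and *Id4* were lowest in Pds5b-KO siGLO (302.3 ± 71.2 and 48.41 ± 9.02).

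*Smad6* rose in dual-depleted cells. Its counts were 217.4, 251.2 and 247.3 in WT siGLO and 319.6, 431.2 and 495.3 in dual-depleted cells, with no overlap. The log2 fold change was 0.80 (standard error 0.19, adjusted p = 0.00193), or 1.74-fold, and the call was lost without WT siGLO library 1 (adjusted p = 0.0126) or dual-depleted library 3 (adjusted p = 0.0152). In Pds5a-KO siGLO the value was 0.30 (adjusted p = 0.278) and in Pds5b-KO siGLO 0.39 (adjusted p = 0.127), and the difference of dual-depleted from Pds5a-KO siGLO cells was 0.50 (adjusted p = 0.0791).

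The antagonist *Nog* and the homeobox target *Msx2* were most abundant in Pds5a-KO siGLO cells, with a wide spread. *Msx2* had 30.93, 50.69 and 58.71 normalized counts in WT siGLO and 49.77, 132.8 and 146.5 in Pds5a-KO siGLO, and *Nog* had 44.68, 65.34 and 76.9 against 66.02, 114.1 and 130.1. In both cases library 1 of Pds5a-KO overlapped WT siGLO while the other two libraries lay above it. The log2 fold changes were 1.23 for *Msx2* (standard error 0.40, adjusted p = 0.0266) and 0.73 for *Nog* (standard error 0.28, adjusted p = 0.0518). Leaving out 1 library gave 0.97 to 1.58 for *Msx2* (adjusted p between 0.00229 and 0.117) and 0.53 to 0.97 for *Nog* (between 0.00992 and 0.221). In both cases only the fit without Pds5a-KO library 1 passed. DESeq2 called neither (adjusted p = 0.0101 for *Msx2* and 0.0466 for *Nog*). With the block for the library number, edgeR called both (adjusted p = 0.000149 and 0.00284). *Nog* was also higher in all 3 WT siPds5b libraries (81.51, 85.95 and 97.58) than in those of WT siGLO, which was not called (0.50, adjusted p = 1).
*Msx1* had few counts, with normalized counts of 6.015, 1.126 and 6.615 in WT siGLO and at most 26.95 in any library, in dual-depleted library 2. It lay between 11.61 and 16.95 in Pds5b-KO siGLO and between 8.879 and 26.95 in dual-depleted cells, above every WT siGLO library in both. Neither difference passed the threshold, at 1.58 in Pds5b-KO (standard error 0.61, adjusted p = 0.0505) and 1.65 in dual-depleted cells (standard error 0.61, adjusted p = 0.0296), and no other comparison of *Msx1* was called.

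**Figure D2:**
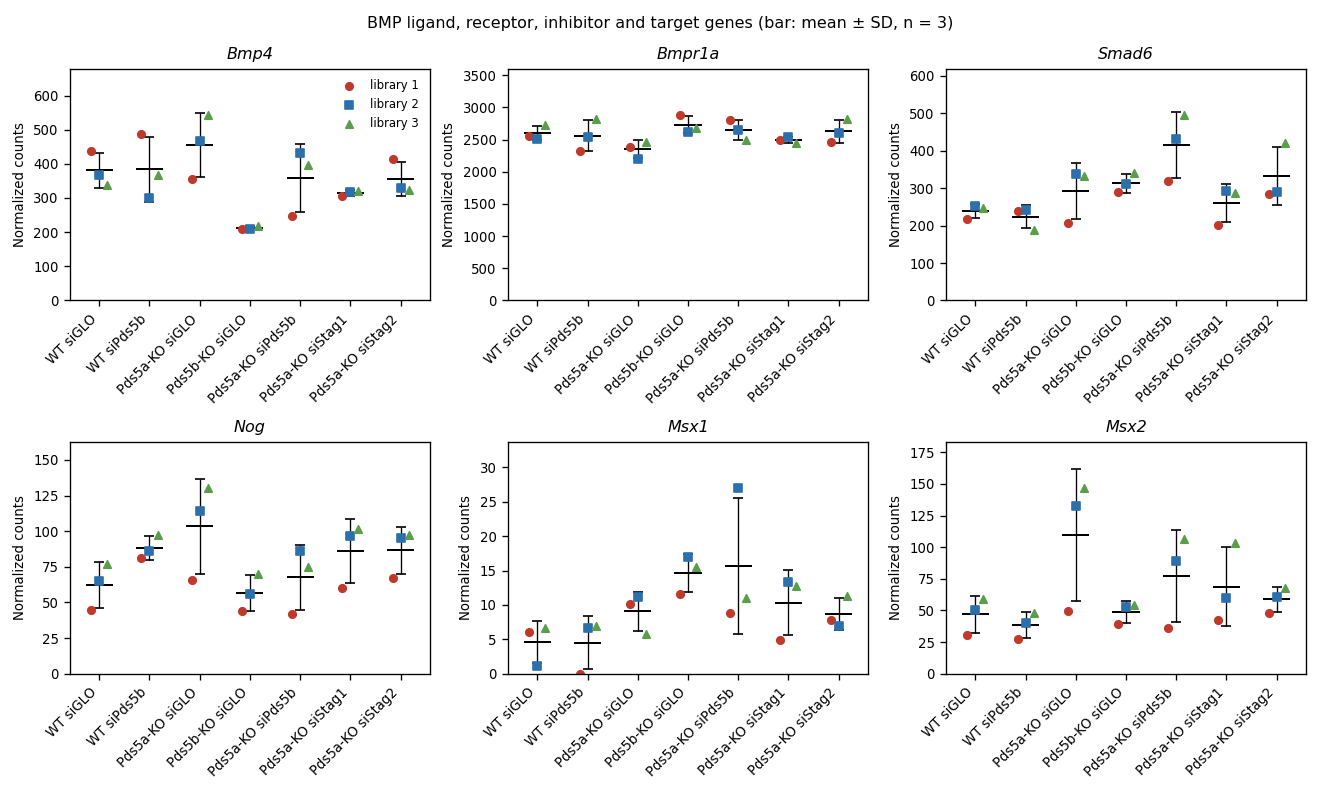
Normalized counts (vertical axes, from 0) of *Bmp4*, *Bmpr1a*, *Smad6*, *Nog*, *Msx1* and *Msx2* in the 7 groups, with a point for each library marked by its number and a bar for the mean ± SD (n = 3). *Bmp4* in Pds5b-KO siGLO (211.9 ± 4.76) lay below every other group, and *Smad6* was highest in Pds5a-KO siPds5b (415.4 ± 88.9).

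Most of the 10 genes were lowest in the library numbered 1 of their group. This held for 8 of 10 in Pds5a-KO siGLO, 9 of 10 in Pds5b-KO siGLO, dual-depleted and Pds5a-KO siStag1 cells, 7 of 10 with siStag2 and 6 of 10 in both WT groups. Over all tested genes, between 34% and 38.9% were lowest in library 1 of their group. *Id2* in Pds5a-KO siGLO library 1 was at 60.1% of the mean of the other two libraries, *Id3* at 52% and *Msx2* at 35.6%. The labels give no date or batch for these numbers, and the part of this pattern in the results was not tested. With only the libraries numbered 2 and 3, a choice made after seeing it, 6 of the 10 genes were called in Pds5a-KO against WT siGLO, *Bmp4*, *Id1*, *Id2*, *Id3*, *Msx2* and *Nog*, in a fit that called 19.2% of all genes.

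Counted over the 10 genes, the single knockouts moved few of them past the threshold. In Pds5a-KO against WT siGLO, 1 of 10 was called (*Id2*, higher), against 17.8% of all tested genes. The median log2 fold change of the 10 was 0.73, against 0.00 over all genes. In Pds5b-KO against WT siGLO, 2 of 10 were called (*Bmp4* and *Id4*, both lower), against 18.2% of all genes, and the median of the 10 was 0.07. Pds5a-KO compared with Pds5b-KO had 2 of 10 called (*Bmp4* and *Id3*, both higher in Pds5a-KO), against 19.2%, with a median of 0.69. In dual-depleted cells against WT siGLO, 4 of 10 were called (*Id1*, *Id2*, *Id3* and *Smad6*, all higher), against 32% of all genes, with a median of 0.76, and leaving out 1 library gave between 1 and 3. For 10 genes each of these 4 shares is near its background. The comparisons with WT siGLO share those 3 libraries, so they are not independent of each other.

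Knockdown of PDS5B in WT cells changed none of the 10 genes in edgeR, against 0.00668% of all genes (1 gene). At an unadjusted p under 0.05 the count was also 0, against 631 of all 14963 genes, and DESeq2 called 0. In Pds5a-KO cells, knockdown of PDS5B moved *Id1* and *Id2* in opposite directions. *Id1* was higher by 0.78 than in Pds5a-KO siGLO (standard error 0.21, adjusted p = 0.02), with every siPds5b library above every siGLO library, and *Id2* was lower, at -0.76 (standard error 0.25, adjusted p = 0.0533), with every siPds5b library below.
In the main edgeR fit, which has no block for the library number, neither passed the threshold. It called 0 of 10 genes, against 7.59% of all genes. At an unadjusted p under 0.05 there were 5 of 10, against 4379 of all 14963 genes. DESeq2, also without a block, called 1 (*Id1*) and 1468 over all genes. The edgeR fit of the libraries numbered 2 and 3 only, without a block, called *Id1* and *Id2* and 1108 over all genes. Those libraries were chosen after the low values of these genes in library 1 were seen, so this fit is not independent support. Same-numbered libraries of these 2 groups deviated together, and once the replicate number entered the model as a block, *Id1* (0.78, standard error 0.14, adjusted p = 0.000696) and *Id2* (-0.72, standard error 0.12, adjusted p = 0.00018) were both called. That fit called 10.5% of all genes. The test of whether siPds5b acted differently in Pds5a-KO and WT cells called 0 of 10 genes, against 1.48% of all genes, and 0 with DESeq2. At an unadjusted p under 0.05 this test had 2 of 10, against 2589 of all 14963 genes. Its values were 0.52 for *Id1* (adjusted p = 0.409), -0.70 for *Id2* (adjusted p = 0.354) and -1.13 for *Nog* (standard error 0.40, adjusted p = 0.122). With the replicate block *Nog* was called in this test (-1.15, standard error 0.25, adjusted p = 0.0064), in a fit that called 389 genes. *Id1* (adjusted p = 0.149) and *Id2* (0.0355) were not.

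**Figure D3:**
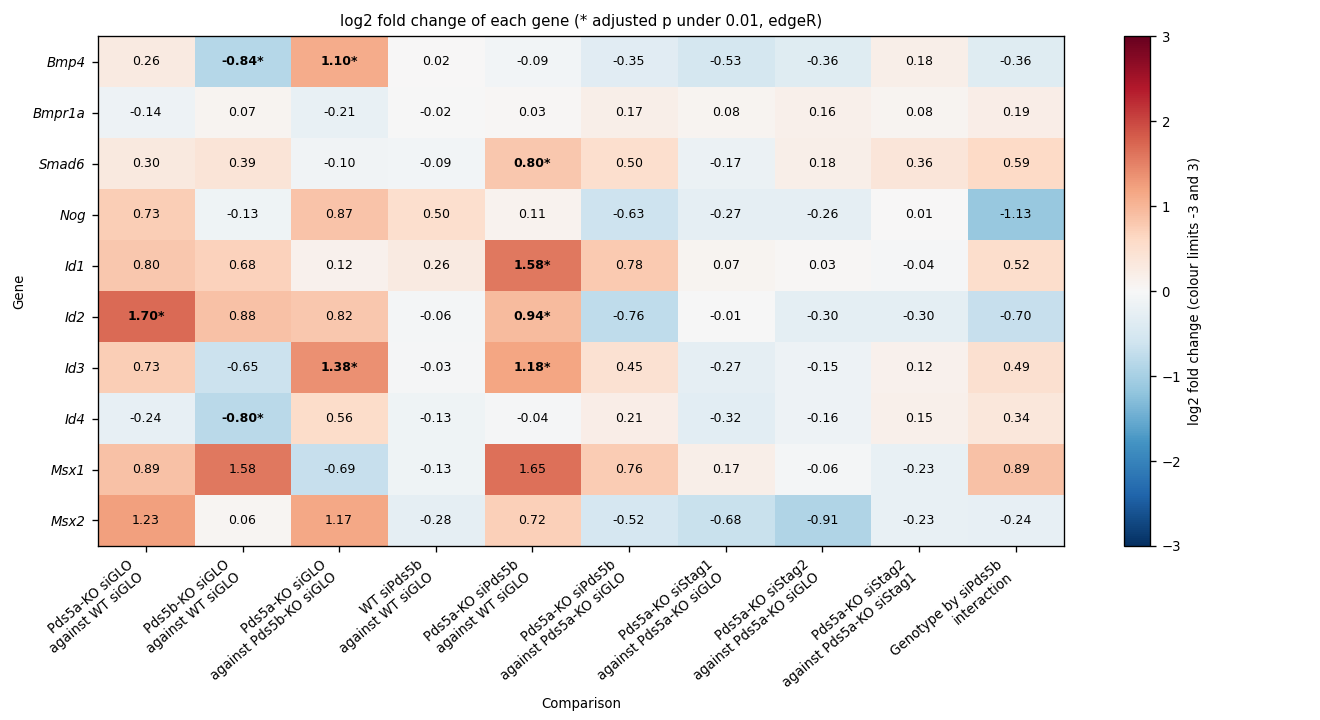
The log2 fold change of each of the 10 genes (rows) in each of the 10 comparisons (columns), coloured from blue (lower) to red (higher) with the value printed and an asterisk at an adjusted p under 0.01 in edgeR. Asterisks fall on *Id2* in Pds5a-KO (1.70), on *Bmp4* and *Id4* in Pds5b-KO (-0.84 and -0.80), on *Bmp4* and *Id3* between the knockouts (1.10 and 1.38) and on *Id1*, *Id2*, *Id3* and *Smad6* in Pds5a-KO siPds5b against WT siGLO (1.58, 0.94, 1.18 and 0.80).

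With siStag1 or siStag2 in Pds5a-KO cells, the libraries of each *Id* gene overlapped those of Pds5a-KO siGLO. *Id1* was at 1443, 2239 and 2309 with siStag1 and 1825, 1913 and 2083 with siStag2, and *Id2* was at 859.4, 1288 and 1318 and at 830.6, 975.6 and 1013. With siStag1 0 of 10 genes were called in edgeR, against 0.0936% of all genes. At an unadjusted p under 0.05 there were 1598 of all 14963 genes and 1 of the 10. That gene was *Bmp4*, at 305.2, 317.8 and 320.5, below each Pds5a-KO siGLO library (-0.53, standard error 0.19, adjusted p = 0.263).
With siStag2 0 of 10 were called, against 2.24%. An unadjusted p under 0.05 was found for 3783 of all genes and for 2 of the 10, *Msx2* (-0.91, adjusted p = 0.161) and *Bmpr1a* (0.16, adjusted p = 0.171). Between siStag2 and siStag1 0 of 10 were called, against 0.394%, and 0 had an unadjusted p under 0.05, against 2971 of all genes. DESeq2 called 0 in each of the 3 comparisons.

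The rest of the pathway was examined through 49 other genes, listed by their role, of which 43 passed the filter. In Pds5a-KO against WT siGLO 14 of the 43 were called (32.6%, against 17.8% of all tested genes), 8 higher and 6 lower. In Pds5b-KO 8 were called (18.6% against 18.2%), 6 higher and 2 lower, and in dual-depleted cells 15 (34.9% against 32%), 11 higher and 4 lower. Both of these shares are near their background. Between the knockouts 12 were called (27.9% against 19.2%), 4 higher and 8 lower in Pds5a-KO. After siPds5b in Pds5a-KO cells 4 were called (9.3% against 7.59%), 3 higher and 1 lower, and after siStag2 2 (4.65% against 2.24%), *Skil* higher and *Tbx3* lower. In edgeR none was called after siPds5b in WT cells (1 at an unadjusted p under 0.05, 0 with DESeq2), after siStag1 (8 and 2), between siStag2 and siStag1 (6 and 1) or in the interaction (3 and 1). Over all 14963 genes, the counts at an unadjusted p under 0.05 in these comparisons were 631, 1598, 2971 and 2589, in the same order. With the replicate block *Skil* was called after siStag1 (0.38, adjusted p = 0.00305), in a fit that called 0.321% of all genes.
Among 8 tested ligands besides *Bmp4*, *Bmp8b* rose in each knockout and in dual-depleted cells. It had 54.14, 41.68 and 53.75 normalized counts in WT siGLO, 242.8, 477 and 501.2 in Pds5a-KO siGLO and 142.5, 168.5 and 173.7 in Pds5b-KO siGLO, so that no group overlapped another, with log2 fold changes of 3.02 (adjusted p = 5.54e-07) and 1.68 (adjusted p = 0.00044). *Gdf6* rose in dual-depleted cells, to 93.23, 130.6 and 139.5 from 7.11, 16.83 and 28.92 in Pds5a-KO siGLO (2.76, adjusted p = 9.78e-06). In WT cells *Gdf6* was also higher with siPds5b (25.47 to 43.53) than with siGLO (10.14 to 18.19), without overlap, which was not called. *Bmp6* rose in Pds5b-KO by 1.03 (adjusted p = 0.00638).

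Of the 4 transducers, *Smad1*, *Smad5* and *Smad4* were called in Pds5a-KO (against 17.8% of all tested genes), all lower. In Pds5b-KO (against 18.2%) *Smad1* alone was called, and it was higher. *Smad1* fell by 0.33 on the log2 scale in Pds5a-KO (adjusted p = 0.00757) and rose by 0.41 in Pds5b-KO (adjusted p = 0.00144), and the difference between the knockouts was -0.74 (standard error 0.09, adjusted p = 1.41e-06). *Smad5* fell by 0.37 (adjusted p = 0.000661) and *Smad4*, the shared partner, by 0.25 (adjusted p = 0.00883) in Pds5a-KO. In Pds5b-KO their values were -0.06 (adjusted p = 0.591) and 0.17 (adjusted p = 0.0722), and *Smad9*, with a mean of 8.979 normalized counts in WT siGLO, was not called in either knockout. The type II receptor *Bmpr2* was lower in Pds5a-KO than in Pds5b-KO by a log2 fold change of -0.94 (adjusted p = 0.00129), and the co-receptor *Eng* by -0.73 (adjusted p = 9.09e-05). *Acvr1*, another type I receptor, was not called in any comparison.

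Of 7 intracellular inhibitors, 3 were called in Pds5a-KO (against 17.8% of all genes), in Pds5b-KO (18.2%) and in dual-depleted cells (32%), comparisons that share the WT siGLO libraries. In each they were *Smurf1*, a ubiquitin ligase that acts on SMAD1 and SMAD5, and the co-repressors *Ski* and *Skil*, all higher. The 7 did not rise as a group. Positive log2 fold changes were found for 4 in Pds5a-KO, 3 in Pds5b-KO and 4 in dual-depleted cells, with medians of 0.05, -0.04 and 0.22. *Skil* rose by 0.74 in Pds5a-KO (adjusted p = 5.78e-08), 0.85 in Pds5b-KO (adjusted p = 7.53e-09) and 1.15 in dual-depleted cells (adjusted p = 1.44e-11). The extracellular antagonist *Nbl1* rose in Pds5a-KO by 1.48 (adjusted p = 0.000806), and *Chrd* fell in Pds5b-KO by 0.76 (adjusted p = 0.00995).

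Among 6 other tested targets, *Hand1*, a transcription factor of mesoderm and trophoblast, was higher in every library of the 4 Pds5a-KO groups than in any other library. It had 24.92, 28.16 and 33.08 normalized counts in WT siGLO, 256, 333.9 and 387.5 in Pds5a-KO siGLO and 53.83, 34.89 and 28.15 in Pds5b-KO siGLO. Pds5a-KO exceeded WT siGLO by 3.50 (standard error 0.23, adjusted p = 2.22e-10) and Pds5b-KO by 3.07 (adjusted p = 7e-10). *Hey1* rose by 0.99 in Pds5a-KO (adjusted p = 0.000269) and by 1.71 in dual-depleted cells (adjusted p = 5.47e-08).
*Tbx3*, also a factor of naive pluripotency, moved the other way, falling by 1.42 in Pds5a-KO, 1.90 in Pds5b-KO and 2.56 in dual-depleted cells (adjusted p = 1.51e-06, 4.53e-08 and 3.08e-10). Of the E proteins that ID proteins bind, *Tcf4* fell by 0.57 in Pds5a-KO (adjusted p = 0.000917) and by 0.56 in dual-depleted cells (adjusted p = 0.000529), *Tcf12* fell by 0.40 in dual-depleted cells (adjusted p = 0.000426), and *Tcf3* was not called in any comparison.

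**Figure D4:**
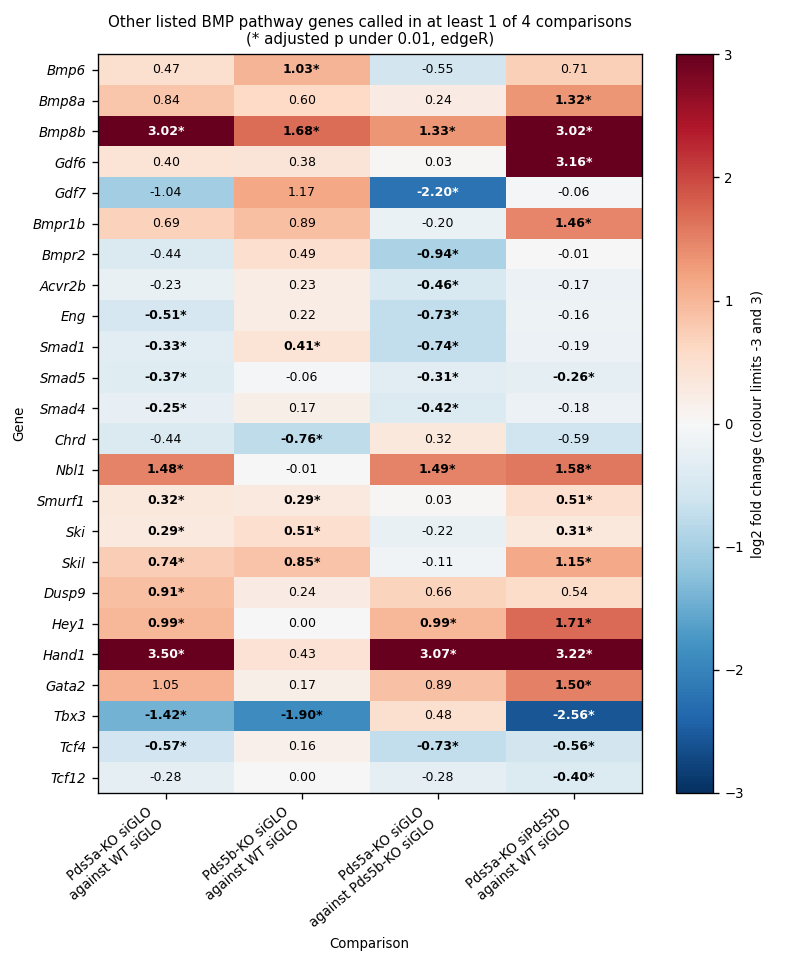
The log2 fold change of the 24 other listed pathway genes (rows) called in at least 1 of 4 comparisons (columns), with the value printed and an asterisk at an adjusted p under 0.01 in edgeR. *Bmp8b* (3.02 and 1.68), *Ski*, *Skil* and *Smurf1* were higher in both knockouts, *Tbx3* was lower in both, and *Hand1* was higher in Pds5a-KO (3.50) with 0.43 in Pds5b-KO.

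The genes whose log2 CPM (counts scaled by library size) followed *Id1* most closely over the 21 libraries, among 12029 genes, were *Wnt9a* (Pearson's r = 0.9473), *Ltb* (0.9169), *Adamtsl5* (0.9099), *Phf15* (0.9028) and *Loxl4* (0.8991). For *Bmp4* they were *Lgals3* (0.8816), *AU018091* (0.8529), *Emp1* (0.8272), *Nid1* (0.8213) and *Ap1s1* (0.8193). The libraries share genotypes and depth, so these values describe likeness only.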

How the data were processed

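Poly-A libraries of 21 samples were sequenced, 3 for each of 7 groups taken from the labels. Alignment by the authors used STAR and the mm10 build, and the deposited values are raw counts of reads per gene symbol. The counting tool, annotation and use of strand are not given in the sources used here.

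Counts were normalized by TMM and tested with edgeR 4.0.16 in R 4.3.3 (quasi-likelihood, robust, 1 model of 21 libraries) after edgeR's filter on low counts. Adjustment followed Benjamini and Hochberg over 14963 genes, with calls under 0.01. The standard error is the size of the log2 fold change divided by the square root of F. Normalized counts are scaled to a library of 19816922. Exon lengths, overlaps and positions came from GENCODE M21 (GRCm38), in which the exons of *Id1* together cover its intron. The 10 genes and the lists were chosen with earlier results of these data known. All 10 genes were described, and from the lists up to 4 called genes per comparison with the largest change, plus *Smad1*, *Smad5*, *Smad4*, *Bmpr2*, *Acvr1*, *Tcf3*, *Tcf4* and *Tcf12*, not all of which are named. *Smurf1*, *Ski*, *Eng* and *Chrd* were named after their values were seen.

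Same-numbered libraries deviated together, with every pair's correlation over 0.1 across 10973 genes, between siPds5b and siGLO in WT and in Pds5a-KO cells and between siStag1 or siStag2 and siGLO in Pds5a-KO cells. A block for the number was therefore tried in an alternative fit, as an effect shared by all 21 libraries. That fit covered every comparison, also those where some pairs did not deviate together. The lowest correlation was 0.0577 for Pds5a-KO and 0.093 for Pds5b-KO, each against WT siGLO, and -0.013 between the knockouts. Chi-square per gene between replicates was 4.76 to 25.2, so none was a duplicate. On simulated data of 14963 genes for dual depletion against WT siGLO, edgeR recovered 73% of changes of 1 on the log2 scale and 93% of changes of 2, and 1.19% of its calls were false. The simulation had no effect of the library number and changed 100 genes by each size, while 4787 genes were called in the data. Its rates may therefore not hold for these libraries. Alternatives were DESeq2 1.42.0, other scaling, filters, thresholds and models, and leaving out each library.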

Additional observations from a re-analysis of the deposited data

Results flagged for a closer look

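*Bmp4* and *Id3* were picked out because the knockouts differed from each other in a test of the difference itself, in edgeR, with both knockouts set against the same WT siGLO libraries. For *Bmp4* the effect of Pds5a-KO minus that of Pds5b-KO was 1.10 on the log2 scale (adjusted p = 0.000204), with 0.26 in Pds5a-KO and -0.84 in Pds5b-KO, and it was called under each of the 14 alternatives. For *Id3* it was 1.38 (adjusted p = 0.00438), with 0.73 and -0.65, and its adjusted p was between 6.19e-07 and 0.0318 over 14 alternatives, 5 of which lost the call. In both genes all 3 Pds5a-KO libraries lay above all 3 Pds5b-KO libraries. Each knockout is 1 clone, so clone and gene cannot be told apart.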

How the results depend on the processing

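None of the 32 fold changes of the 10 genes with an unadjusted p under 0.05 changed direction under any alternative. Of the 9 calls, 95 of 126 alternative values stayed called. In Pds5a-KO against WT siGLO 1 gene was called, against 2 with DESeq2, with at least 10 counts in every library or with only the groups compared in the model, 3 at an adjusted p under 0.05, 5 with the replicate block, 6 with the libraries numbered 2 and 3 only, and 1 to 4 when a library was left out. In Pds5b-KO against WT siGLO 2 were called, against 4 with DESeq2, 1 with scaling by library size only or without a filter, 5 with the block, 4 at an adjusted p under 0.05, 4 with libraries 2 and 3 only, and 0 to 2 when a library was left out (0 without Pds5b-KO library 2). Between the knockouts 2 were called, against 1 with only the groups compared, 5 with the block, 6 at an adjusted p under 0.05, 5 with libraries 2 and 3 only, and 1 to 5 when a library was left out. Dual depletion against WT siGLO gave 4, and 1 to 3 when a library was left out. Against Pds5a-KO siGLO it gave 0, against 1 with DESeq2 or at an adjusted p under 0.05 and 2 with the block or with libraries 2 and 3 only. Over all genes, dual depletion against WT siGLO gave 4787 calls, and 3836 to 4437 when a library was left out. Against Pds5a-KO siGLO it gave 1136, against 1468 with DESeq2, 1568 with the block and 1108 with libraries 2 and 3 only. With libraries 2 and 3 only, siStag1 gave 1 (*Bmp4*), siStag2 gave 2 (*Bmp4* and *Msx2*) and the interaction 1 (*Id2*), and the interaction with the block gave 1 (*Nog*, -1.15, adjusted p = 0.0064). Over all genes Pds5a-KO gave 2656 calls, against 3019 with DESeq2, 3175 with the block and 2873 with libraries 2 and 3 only. It gave 2326 with at least 10 counts in every library and 1817 with only the groups compared. Pds5b-KO gave 2725, against 3176 with DESeq2, 3316 with the block and 2405 with libraries 2 and 3 only. Between the knockouts there were 2873, against 3552 with the block and 2707 with libraries 2 and 3 only. The causes were not tested.

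Over all genes, counts of calls differed by over 1.5 times in these settings. At an adjusted p under 0.05 the knockouts gave 4215 and 4677 (2656 and 2725 before), their comparison 4849 (2873), siPds5b in WT 4 (1), in Pds5a-KO 2353 (1136), siStag1 50 (14), siStag2 1196 (335), siStag2 against siStag1 358 (59) and the interaction 578 (222). With only the groups compared, the comparison of the knockouts gave 1883, siPds5b 2 in WT and 514 in Pds5a-KO, siStag1 8, siStag2 93, siStag2 against siStag1 94 and the interaction 138. DESeq2 gave 4, 72, 775, 281 and 415 for siPds5b in WT, siStag1, siStag2, siStag2 against siStag1 and the interaction, and the block gave 3, 48, 677, 276 and 389. Libraries 2 and 3 only gave 6, 100 and 138 for siPds5b in WT, siStag1 and siStag2 against siStag1, and no filter gave 2 for siPds5b in WT. Leaving out 1 library gave 1757 to 2581 for Pds5a-KO, 1735 to 2621 for Pds5b-KO, 1742 to 2695 between them, 690 to 957 for siPds5b in Pds5a-KO, 4 to 15 for siStag1, 75 to 386 for siStag2, 6 to 19 for siStag2 against siStag1 and 120 to 233 for the interaction.

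In comparisons other than the 4 with paired libraries the number is only a shared label. Over 63 same-numbered pairs the median correlation of deviations was 0.1995, against -0.0976 over 126 others, and 16 of 21 libraries were closest to their own number. The few counts of *Msx1*, at most 26.95 normalized counts in a library, limit the precision of its fold changes.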

Other observations

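Across the 21 libraries, which share genotypes and depth, *Id1* followed *Smad6* (Pearson's r = 0.81 of log2 CPM, as a description) and *Id3* (0.73), and *Id2* followed *Msx2* (0.72). *Id1* and *Bmp4*, the gene of a ligand of the pathway, had r = 0.06. In Pds5b-KO cells *Id1* libraries lay above, and *Bmp4* libraries below, those of WT siGLO.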
